A study of Rattus norvegicus with 12 samples.

Results

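Cytosolic ribosomal protein genes encode the proteins of the large and small subunits of the ribosome outside mitochondria. They were chosen by name: an array feature belonged to the set when its single gene symbol began with Rpl or Rps followed by a digit, or was Rpsa, and kinase symbols that start with Rps6k were left out. The rule found 46 genes on 96 of the 18144 features, 28 of the large subunit and 18 of the small one. The rule itself used no measured value, but the set was chosen with earlier results of these data known. The symbols included 3 pseudogene entries (Rpl17-ps16, Rpl18-ps7 and Rps27a-ps1) and 5 related copies (Rpl3l, Rpl22l2, Rpl27l1, Rpl36al1 and Rpl37l1). Another 14 features carried such a symbol together with another gene's and were not counted.

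RNA came from rat tissue punches labelled NTS, an abbreviation that the labels do not spell out, taken from slices and combined. The study compared 6 rats called alcoholic with 6 control rats, joined into 6 animal pairs. The series title calls the treatment ethanol; its dose, route and duration, and the strain, sex and age of the animals, are not given in the sources used here. Each animal had 1 array with the dyes Cy5 for its own RNA and Cy3 for a reference RNA whose make-up is not given either. Values are log2 ratios, taken as sample over reference from the dyes; the direction is likely but unstated, and every sign below turns with it.

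A ribosome joins a small subunit, which holds the mRNA and checks each codon, to a large subunit, which forms the peptide bond and releases the chain through a tunnel. Each subunit holds mostly a single copy of each of its proteins, and cells make these proteins in step with ribosomal RNA. Messages of ribosomal proteins share a pyrimidine-rich start through which mTOR signalling controls their translation, so that their mRNA level is only part of their output. Many of these genes have processed pseudogenes and near-identical copies, so a clone on an array can bind RNA of more than 1 of them, and each value below carries that uncertainty.

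Array medians of the log2 ratio lay between 0.35 and 1.85, and these medians were subtracted, so a value of 0 means the median feature of that array. Exact zeros, 484 to 726 per array, were treated as missing. Among the ribosomal protein genes only Rpl11 and Rps29 had any, 19 of their 48 spot values. The tissue could not be checked against its label, since a ratio to an unknown reference gives no level and no feature carried the symbol Th or Dbh. In punched tissue, fewer cells of a type and less RNA per cell cannot be told apart.

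Each gene was read from 2 neighbouring spots of a clone, and 2 genes, Rpl10 and Rps15a, from a pair of clones. The spots showed how closely a gene was measured on an array. In the 46 clones with both spots on all 12 arrays, a single spot varied around the mean of the pair with a median SD of 0.14 on the log2 scale. The spot values followed each other over the arrays with a median r of 0.86, from 0.05 for Rpl18-ps7 to 0.996 for Rps3a; spots of a clone share the array and its labelled RNA. For 23 of the 44 genes measured on every array, the SD over the arrays was more than 2 times that of a spot.

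No ribosomal protein gene was called as higher or lower in alcoholic animals. In limma's moderated test, which compared the partners of each animal pair, 0 of 46 passed an adjusted p of 0.05 (Benjamini-Hochberg), as did 0% of the 11835 genes or unnamed features tested. The smallest adjusted p among them was 0.999. At an unadjusted p under 0.05, limma gave 0 of the 46, against 2.45% of all tested and 70 of the 4497 with a single symbol. The values of the groups overlapped for all 46 genes. Overlap was not counted over all tested, so this describes these genes only. The differences lay close to 0: 19 were positive and 27 negative, with a median of -0.02 and quartiles of -0.14 and 0.08, where all tested had a median of 0.006 and quartiles of -0.10 and 0.11.

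Single pairs moved many of these differences. When each pair was left out in turn, 23 of the 44 complete genes had differences on both sides of 0. Below, a bare range in brackets after a difference gives its lowest and highest value over those fits. Most intervals were narrow. For 42 of the 46 genes the whole 95% interval stayed inside a 2-fold change (91.3%, against 86.7% of all tested). Of those with a single symbol 4048 of 4497 did, a share close to that of the ribosomal protein genes. For 38 of the 46 the interval stayed inside a 1.5-fold change (all tested 66%), which was not counted over those with a single symbol. All tested include features fitted on their own, while each ribosomal protein gene averages at least 2 spots, so these are not like measures. The genes whose interval reached past 2-fold were Rpl11, Rps29, Rpl21 and Rps10, described below. The median standard error of a difference was 0.14, against 0.16 over all tested and 0.15 over those with a single symbol. Large subunit genes had a median difference of -0.05 (19 of 28 negative) and small subunit genes 0.04 (8 of 18 negative); the difference between the subunits was not tested.

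**Figure D1:**
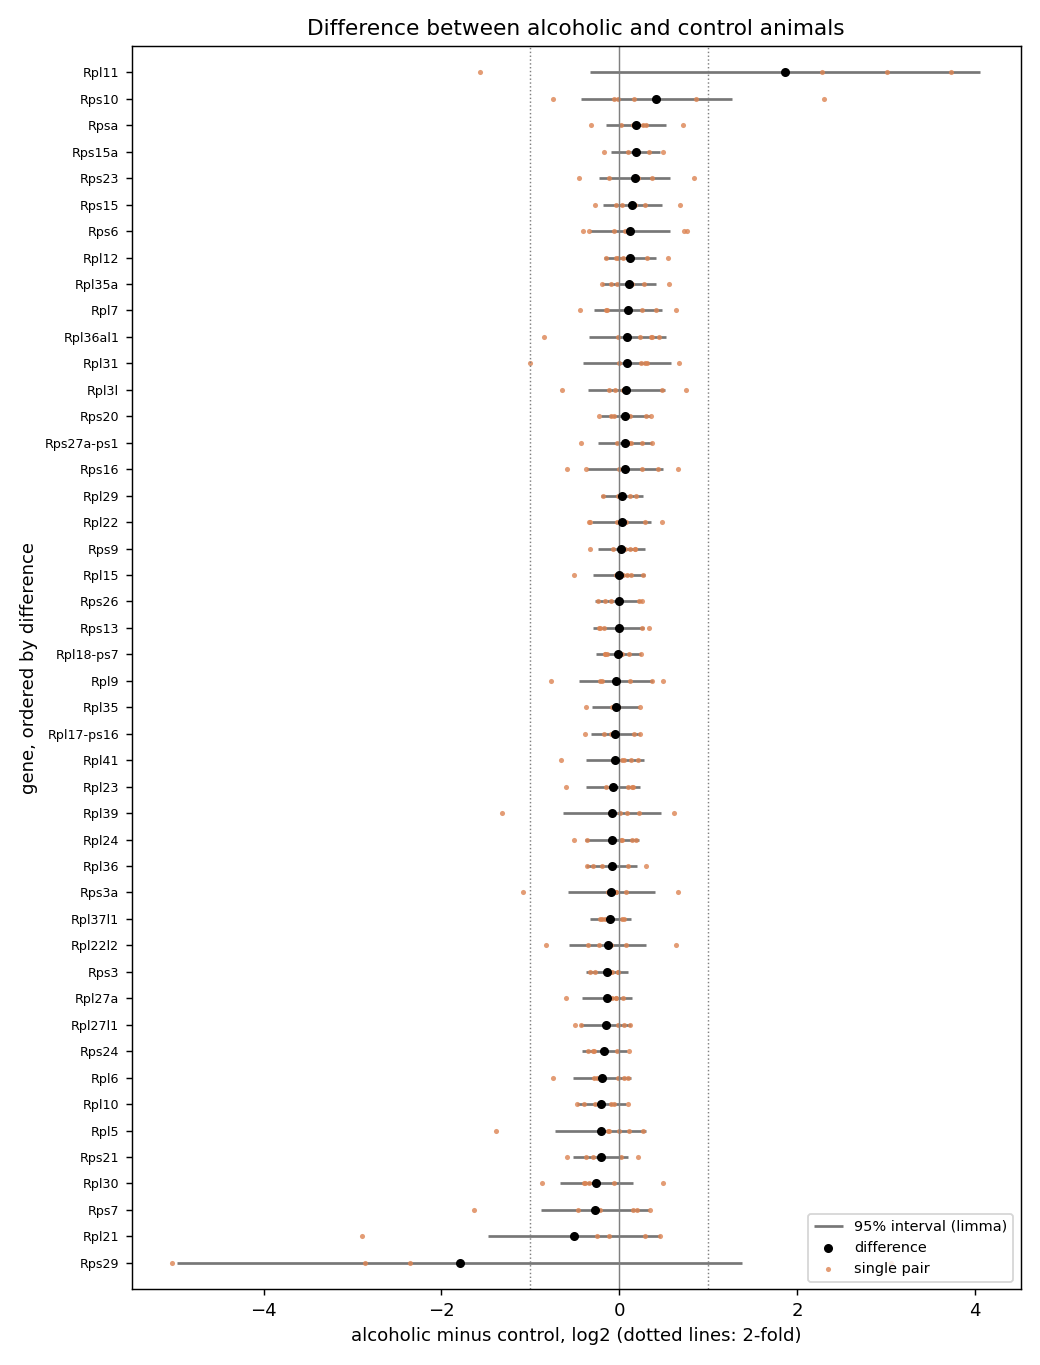
Difference between alcoholic and control animals on the log2 scale for each of the 46 ribosomal protein genes: black points are the fitted differences, grey bars their 95% intervals from limma, small orange points the single animal pairs, and dotted lines a 2-fold change. Every interval crosses 0, and those of Rpl11 and Rps29, each measured in 4 pairs, are the widest.

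Rpl5 and Rpl11 join the 5S ribosomal RNA in a particle of the large subunit that also binds the p53 regulator Mdm2. Rpl5 had a lowest, median and highest centred log2 ratio of -1.0, -0.47 and 0.44 in alcoholic animals and -1.27, 0.04 and 0.64 in controls; triplets below keep that order. The groups overlapped over nearly their whole range. The difference was -0.21 (SE 0.22), negative in 3 of 6 pairs and 0 in pair 6. Pair 3 stood at -1.39, and without it the difference was 0.03. Rpl11 had values in 5 alcoholic animals, from 1.48 to 5.06, and in 5 controls, from 0.27 to 3.55. The fit used the 4 pairs with both values and gave 1.86 (95% interval -0.33 to 4.06). Leaving out any of these pairs left too few for the fit. The pairs went both ways, 2.28, 3.01, -1.57 and 3.73 in pairs 2 to 5, and with exact zeros kept as values the difference was 0.46.

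Several proteins of the large subunit sit where it meets the small one or its ligands. Rpl10, which is added last and lets the subunits join, stood at 1.27, 1.39 and 1.54 (lowest, median, highest) in alcoholic animals and 1.36, 1.65 and 1.82 in controls. It was lower in 5 of 6 alcoholic animals than in their partners, with a difference of -0.20 (SE 0.12); the range with a pair left out was -0.26 to -0.15, with overlapping groups and an adjusted p of 0.999 by limma. Rpl24, of a bridge between the subunits, differed by -0.08 (SE 0.13), and by 0.002 without pair 3. Rpl12, at the base of the stalk that recruits translation factors, differed by 0.12 (SE 0.13), and by 0.03 without pair 3. Rpl23, at the subunit interface, differed by -0.07 (-0.12 to 0.04), and Rpl41, the shortest ribosomal protein, by -0.05 (-0.10 to 0.07). None of these differences passed the test.

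Rpl39, Rpl31 and Rpl35 lie along the tunnel or around its exit. Rpl39 ranged from -3.64 to -2.30 in alcoholic and from -3.53 to -2.19 in control animals, so the groups nearly coincided, and its difference was -0.08 (SE 0.24). Rpl31 differed by 0.09 (-0.03 to 0.30) and Rpl35 by -0.04 (-0.10 to 0.02). In pair 3 all 3 stood lower in the alcoholic animal, with differences of -1.32, -1.0 and -0.37, while in pair 1 all 3 stood higher, at 0.61, 0.68 and 0.24. Leaving out pair 3 brought Rpl31 to 0.30 and Rpl39 to 0.17.

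Rpl30, a small RNA-binding protein, stood at -0.63, 0.10 and 0.65 in alcoholic and -1.0, 0.32 and 1.52 in control animals, and differed by -0.26 (SE 0.18), lower in 5 of 6 pairs. Without pair 1 its difference was -0.41. Rpl6 differed by -0.19 (-0.25 to -0.08), Rpl27a by -0.14 (-0.18 to -0.05) and Rpl36 by -0.09 (-0.16 to -0.03). Rpl7 differed by 0.10 (-0.01 to 0.21), Rpl9 by -0.03 (-0.14 to 0.12) and Rpl29, a heparin-binding protein, by 0.03 (-0.003 to 0.07). Rpl29 had the tightest values of the standard genes, with an SD of 0.11 over 12 arrays. Rpl22, which also binds viral and cellular small RNAs, differed by 0.03 (-0.07 to 0.10), and Rpl15 by -0.003 (-0.06 to 0.10).

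In the small subunit, Rps6 is a substrate of S6 kinase, which acts below mTOR. It stood at 0.88, 2.00 and 2.17 in alcoholic and 0.65, 1.64 and 2.57 in control animals, with overlapping groups, and differed by 0.13 (SE 0.19), higher in 3 of 6 pairs. Its pairs spread from -0.41 to 0.77, and with a pair left out the difference was -0.003 to 0.23. Rps3, which lines the channel where mRNA enters, was lower in the alcoholic animal in 6 of 6 pairs, the single gene of the 44 complete ones to go downward in every pair (background 0.79%), while 0 went upward in every pair (background 0.781%). The difference was -0.14 (SE 0.10), with pairs from -0.33 to -0.02 and values of 1.25, 1.54 and 1.86 against 1.27, 1.77 and 1.94. Its adjusted p was 0.999 by limma. Another 7 of the 44 went the same way in 5 of 6 pairs, higher or lower. That count was not made over all tested, so it has no background here.

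Rps23, which shapes decoding accuracy, differed by 0.17 (95% interval -0.23 to 0.57), and by 0.04 to 0.30 with a pair left out. Rps15, whose tail reaches toward the decoding site, differed by 0.14 (0.04 to 0.23), and Rps9 by 0.02 (-0.01 to 0.09). Rps26, at the exit of the mRNA channel, had group means of 0.36 ± 0.19 and 0.36 ± 0.22 (SD, n = 6 each). Rpsa, known also as a laminin receptor, was higher in 5 of 6 pairs, with a difference of 0.19 (SE 0.15), 0.08 to 0.29 with a pair left out, and 0.73 ± 0.28 against 0.55 ± 0.38 (SD, n = 6 each). Rps21 differed by -0.21 (-0.29 to -0.14) and Rps24 by -0.17 (-0.23 to -0.13), the latter lower in 5 of 6 pairs. Rps13, Rps16 and Rps20 differed by -0.01 (-0.07 to 0.04), 0.07 (-0.05 to 0.20) and 0.07 (0.01 to 0.13). Rps3a differed by -0.09 (-0.24 to 0.11), with the highest value without pair 3.

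Some genes had an array far from the others of its group. Rpl21 stood at 4.65 in the control of pair 6, where the other controls lay between 1.5 and 1.93 and the alcoholic animals between 1.39 and 1.99. Its difference was -0.51 (SE 0.42), and -0.03 without pair 6. Rps7 stood at 3.50 in the control of pair 4, and its difference of -0.27 became 0.003 without that pair. Rps10, in the head of the small subunit, stood at 1.71 in the alcoholic animal of pair 2 against -0.95 to -0.16 in the other alcoholic animals. Its difference went from 0.42 to 0.04 without that pair. Rpl35a stood at 2.09 in the alcoholic animal of pair 5 against 1.47 to 1.70 in the others, and its difference of 0.11 became 0.02 without that pair. Rpl22 and Rpl6 had their lowest values of the group in the alcoholic animal of pair 2, and without it differed by 0.04 and -0.08. Rps29, with values in 10 arrays between 0.20 and 7.46, differed by -1.80 (95% interval -4.97 to 1.38) over 4 pairs. Its pairs 1, 3, 4 and 5 gave -5.03, 3.06, -2.36 and -2.86, and the difference was -0.58 with exact zeros kept as values.

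The pseudogene and related symbols had differences inside the range of the standard ones. Rpl17-ps16, Rpl18-ps7 and Rps27a-ps1 differed by -0.05 (-0.10 to 0.02), -0.01 (-0.06 to 0.02) and 0.07 (0.01 to 0.17). Rps27a encodes a fusion of ubiquitin with a small subunit protein. Among the related copies, Rpl3l, known as a muscle form of Rpl3, differed by 0.08 (-0.06 to 0.22). Rpl36al1 differed by 0.09 (0.02 to 0.28), Rpl37l1 by -0.10 (-0.13 to -0.08), Rpl22l2 by -0.13 (-0.28 to 0.01) and Rpl27l1 by -0.16 (-0.21 to -0.09). Without these 8 symbols the median difference of the remaining 38 genes was -0.02.

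Rpl10 and Rps15a allowed a comparison of clones. The clones of Rpl10 had far apart log2 ratios, 2.57 ± 0.32 and 0.45 ± 0.18 (SD over 12 arrays), so a ratio depended on the clone. Their differences between groups were nonetheless close, -0.21 ± 0.29 and -0.19 ± 0.17 (SD, n = 6 pairs), each lower in 5 of 6 pairs. The clones of Rps15a stood at -0.68 ± 0.30 and -0.05 ± 0.31. They differed between groups by 0.29 ± 0.38 and 0.08 ± 0.28. Averaged, Rps15a was higher in 5 of 6 pairs, with a difference of 0.18 (0.12 to 0.26).

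Against the reference, ribosomal protein genes lay mostly above the median feature. Averaged over the arrays, 34 of 46 had a log2 ratio above 0, against 49.7% of all tested and 48.4% of those with a single symbol. The median of the 46 genes was 0.66. Medians of the lists read below ran from -0.65 for S6 kinase and mTOR genes to 1.89 for astrocyte markers, so the level was not particular to this set. Of the 44 complete genes, 26 were above 0 on every array (background 31.5%), 7 below 0 on every array (background 35.9%) and 11 on either side. Rps23 had the highest mean of the complete genes, 2.73 ± 0.40, followed by Rpl6 at 2.19 ± 0.33. Rpl39 had the lowest, -2.79 ± 0.49, then Rpl24 at -1.48 ± 0.49 and Rps24 at -1.01 ± 0.19 (SD, n = 12 arrays). These are ratios to a reference of unknown make-up and not amounts of mRNA, so they do not rank the genes by abundance. With the direction turned, 12 of 46 would be above 0, Rpl39 would stand highest of the complete genes and Rps23 lowest.

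**Figure D2:**
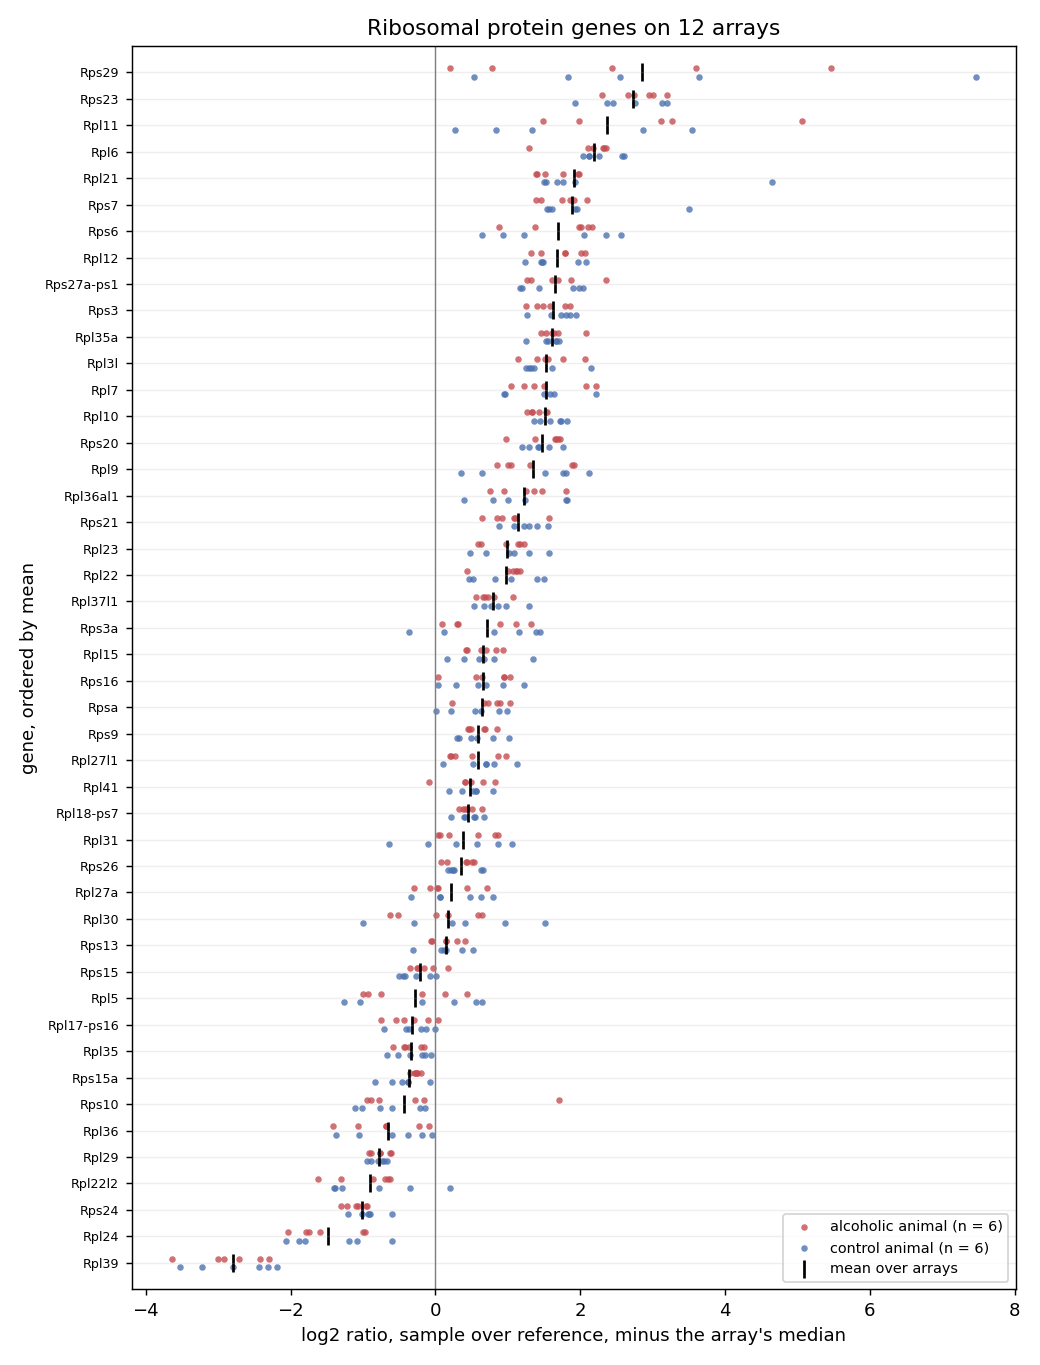
Log2 ratio of sample over reference, minus the median of the array, for each ribosomal protein gene: red points are alcoholic and blue points control animals, up to 6 each, and black ticks the mean over the arrays. Red and blue points overlap for every gene, and the means run from -2.79 for Rpl39 to 2.85 for Rps29.

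The median over the ribosomal protein genes gave each animal a level. It was 0.66, 0.75, 0.61, 0.68, 0.84 and 0.68 in the alcoholic animals of pairs 1 to 6, and 0.40, 0.57, 0.79, 0.81, 0.87 and 0.74 in their controls. The group means were 0.70 ± 0.08 and 0.70 ± 0.18 (SD, n = 6 each), and the control of pair 1 was the lowest of all arrays. Within pairs, the median difference was 0.17 in pair 1, with 33 of 45 genes higher, and -0.28 in pair 3, with 32 of 46 lower. All tested features had medians of 0.07 and 0.02 in these pairs, with 43.2% and 48.8% lower. Genes with a single symbol had medians of 0.09 and -0.035, with 39.9% and 53.1% lower. In pairs 2, 4, 5 and 6 the medians were -0.03, -0.05, 0.02 and -0.005. In pair 4, 30 of 46 genes were lower, against 49.4% of all tested and 47.1% of genes with a single symbol. Without pair 3 the median difference over the genes changed sign, to 0.02.

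**Figure D3:**
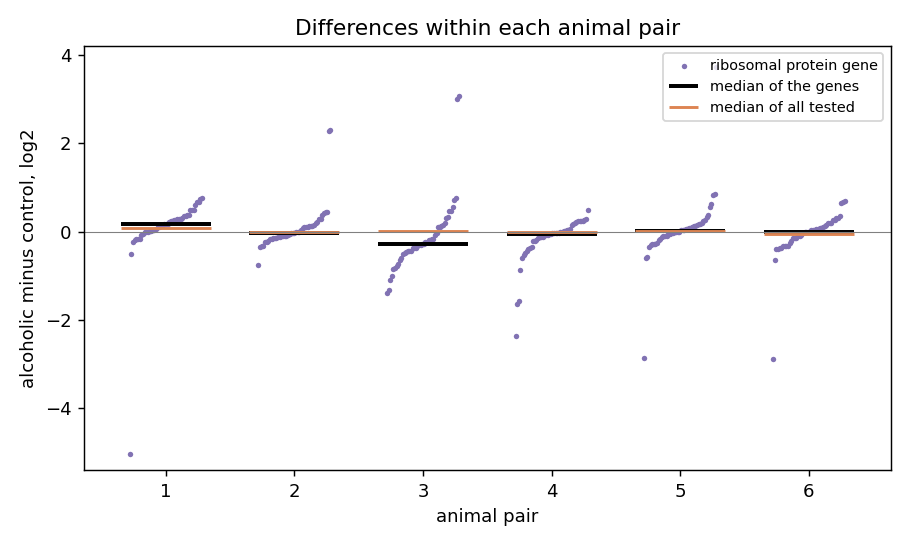
Difference between the alcoholic and the control animal on the log2 scale in each animal pair: purple points are the ribosomal protein genes, sorted within each pair, black bars their median and orange bars the median of all tested features. The black bar lies above the orange one in pair 1 (0.17 against 0.07) and below it in pair 3 (-0.28 against 0.02).

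Most of the variation of ribosomal protein genes lay between animal pairs. Differences between pairs took up a median of 75.7% of a gene's sum of squares over the arrays, from 28.9% for Rps15 to 93.1% for Rpl36. The median was 62.2% over all complete genes and 64.9% over those with a single symbol. In the lists read below it ran from 54.1% for mitochondrial ribosomal proteins to 76.6% for microglia markers, with 74.1% for aminoacyl-tRNA synthetases. With no pair effect the share averages 45.5%. No gene of the set passed limma's F test between pairs at an adjusted p of 0.05 (0 of 44; background 0.236%), and 12 had an unadjusted p under 0.05 (27.3%; background 20.7%). The smallest adjusted p was 0.108, for Rpl30. Without pair 3, 20 of the 44 had an unadjusted p under 0.05 by limma's F test (45.5%, against 25.8% of all complete genes). None passed after adjustment. The partners of pair 3 were the least alike over these genes, so leaving it out tends to raise F, and the count is no separate evidence. With any other pair left out, 9 to 13 of the 44 did (20.5% to 29.5%, against 13.8% to 19.9% of all complete genes). What the animals of a pair shared besides the label, such as a day or a hybridisation, is not given, so origin and handling cannot be told apart.

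Some genes that varied between pairs are shown by their values, having been picked after these were seen. Rpl5 stood at -1.0, -0.94, -0.75, 0.44, 0.14 and -0.19 in the alcoholic animals of pairs 1 to 6 and at -1.27, -1.04, 0.64, 0.56, 0.26 and -0.19 in the controls. It was low in both animals of pairs 1 and 2 and in the alcoholic animal of pair 3, and high in the control of pair 3 and in both animals of pairs 4 and 5. Rps3a was low on the same 5 arrays, with 0.30, 0.09, 0.31, 1.33, 1.12 and 0.89 in alcoholic animals and -0.37, 0.12, 1.40, 1.45, 1.15 and 0.81 in controls. Its low arrays lay at 0.31 or below and its others at 0.81 or above. Rpl24 stood at -2.04, -1.75, -1.59, -0.97, -1.0 and -1.78 in alcoholic animals and -2.06, -1.89, -1.08, -0.61, -1.19 and -1.81 in controls, with both animals of pair 6 among the low ones. Its partners differed by at most 0.19 in pairs 1, 2, 5 and 6, and by -0.51 and -0.37 in pairs 3 and 4.

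Some genes ran the other way. Rpl36 stood at -0.23, -0.09, -0.68, -0.68, -1.42 and -1.07 in alcoholic animals and at -0.04, -0.19, -0.38, -0.60, -1.06 and -1.38 in controls. It was nearest to 0 in pairs 1 and 2 and lowest in pairs 5 and 6, and partners differed by -0.36 to 0.31. Rpl15 was highest in the control of pair 1, at 1.35, and lowest in the control of pair 4, at 0.17. What set the opposite profiles was not tested.

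**Figure D4:**
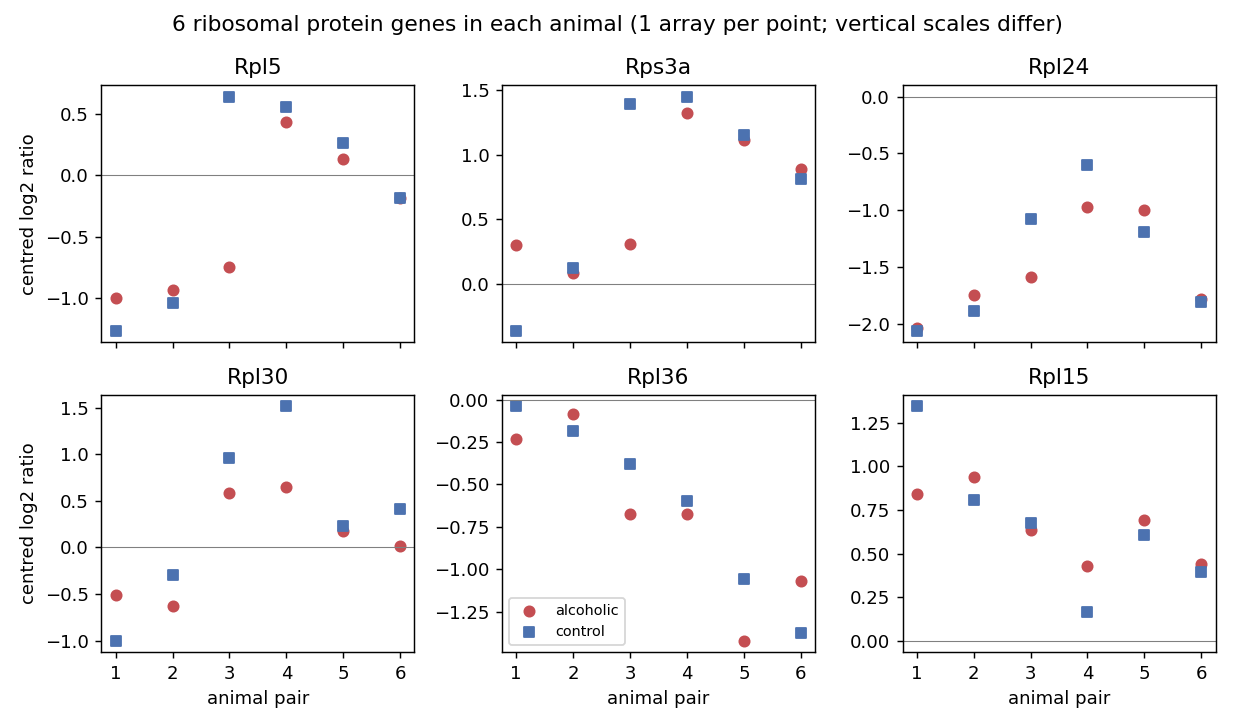
Centred log2 ratio of 6 ribosomal protein genes in each animal, by animal pair, with red circles for alcoholic and blue squares for control animals; vertical scales differ between panels. Rpl5, Rps3a, Rpl24 and Rpl30 are low in pairs 1 and 2 and high in pair 4, Rpl36 and Rpl15 are highest in pairs 1 and 2, and in pair 3 the partners lie apart for Rpl5 (-0.75 and 0.64) and Rps3a (0.31 and 1.40).

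The pattern was not restricted to ribosomal proteins. The first principal component of the 11011 genes complete on all arrays, with each gene scaled to equal weight, held 27.6% of the variance, and 34 of the 44 ribosomal protein genes correlated with it in the positive direction, against 61.2% of genes with a single symbol. Rps3a (r = 0.97), Rpl5 (0.95), Rpl9 (0.94) and Rpl31 (0.91) followed it most closely and Rpl15 (-0.79) and Rpl36 (-0.66) most inversely, over 12 arrays that share pairs. In all, 10 of the 44 had r above 0.8, against 11.3% of single-symbol genes. Their median r was 0.52, against 0.22 over single-symbol genes. In the lists read below the median r ran from -0.07 for ribosome assembly genes to 0.79 for oligodendrocyte markers, with 0.65 for initiation factors. The arrays' scores on the component ran from -0.52 in the control of pair 1 to 0.30 in the control of pair 3, whose partner stood at -0.02. These 3 arrays had medians before centring of 0.51, 1.36 and 0.45, whose part in the pattern was not tested. The median correlation between any 2 ribosomal protein genes was 0.20 over 946 combinations, and 0.02 between any 2 complete genes.

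Over the 44 ribosomal protein genes, deviations of partners from their group means correlated with r of 0.74, 0.62, -0.22, 0.70, 0.56 and 0.32 in pairs 1 to 6; genes are not independent in these values. Pair 3 was the only pair below 0. The control of pair 3 was most like the alcoholic animal of pair 4 (r = 0.66), and the alcoholic animal of pair 3 most like the control of pair 6 (r = 0.27). Of the 12 arrays, 5 were most like their own partner. An exchange of arrays was not tested. Without pair 3, 13 ribosomal protein genes had the opposite sign of difference.

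**Figure D5:**
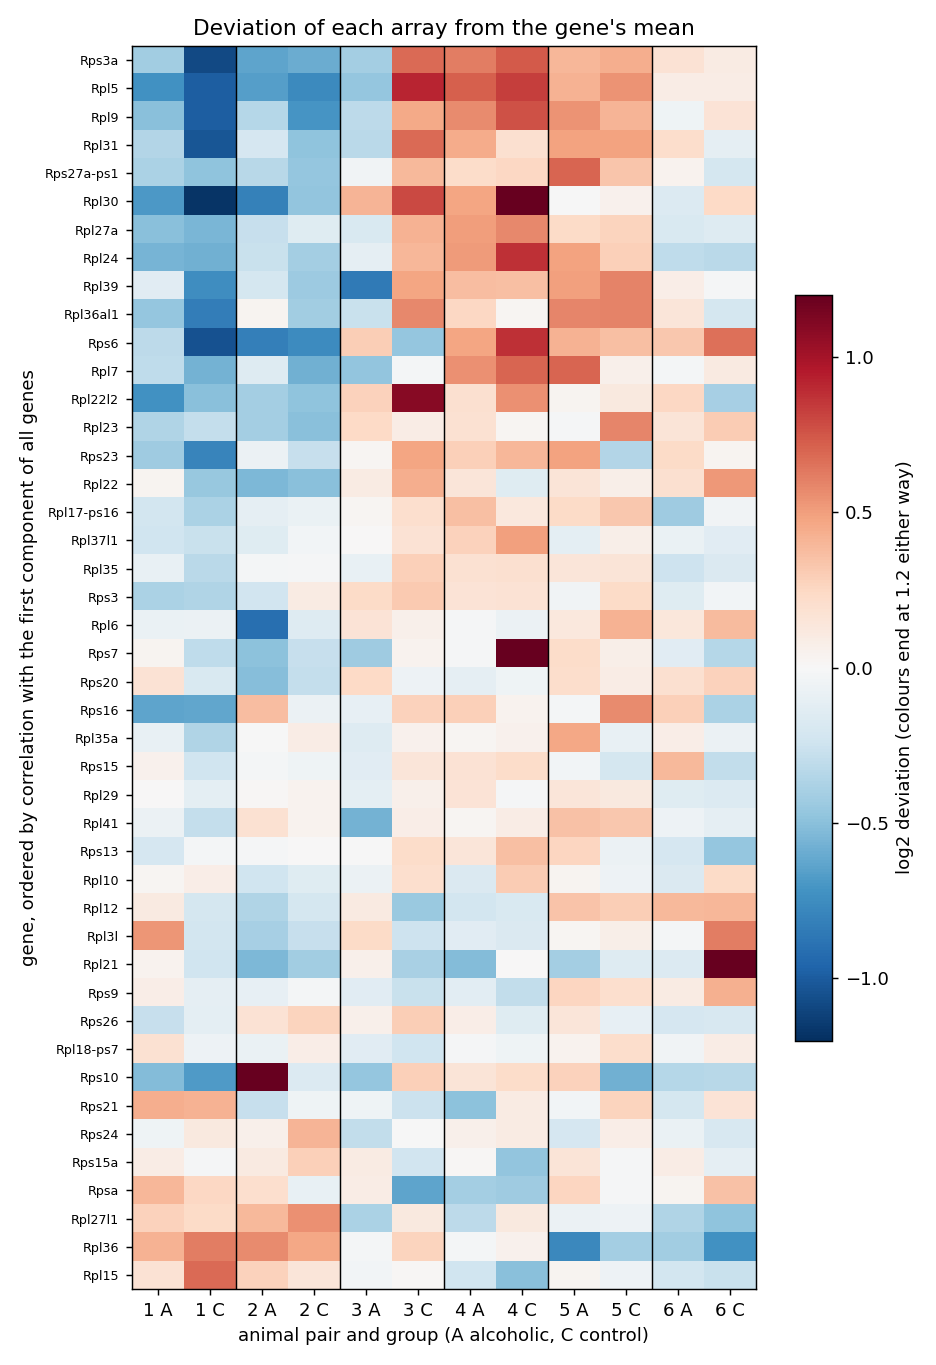
Deviation of each array from the gene's mean over the arrays, on the log2 scale, for the 44 ribosomal protein genes complete on all 12 arrays; columns are animals by pair (A alcoholic, C control), and rows are ordered by correlation with the first component of all genes. Rows at the top, such as Rps3a, are low (blue) in pairs 1 and 2 and high (red) in pairs 4 and 5. Rpl15, at the bottom, is high in pairs 1 and 2, low in pair 4 and near its mean in pair 5. The columns of pair 3 differ from each other.

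Other genes of protein synthesis were read from lists. In none of the 12 lists was a member called, in either direction, as for all tested (0%). At an unadjusted p under 0.05 limma gave 1 of 19 initiation factor genes, Eif4g3, and 1 of 38 assembly genes, Npm1. The background was 2.45% of all tested, and 70 of 4497 genes with a single symbol. Rplp0, of the stalk, and Rack1, a signalling scaffold on the small subunit, are ribosomal proteins outside the naming rule and differed by 0.12 and -0.005. Of 32 mitochondrial ribosomal protein genes, 21 were negative, with a median of -0.01; Mrpl3 differed by -0.19 (SE 0.11) and Mrpl45 by 0.74 (SE 0.47).

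Initiation factor genes, 19 in number, had a median of 0.04, with 12 positive. Eif4g3, a scaffold of the cap-binding complex, differed by -0.45 over 4 pairs, and Eif4b by 0.21. Elongation and release factor genes (11) had a median of 0.00, with Etf1, the release factor that reads stop codons, at 0.61 (SE 0.32) and Eef1a2, an elongation factor of neurons and muscle, at -0.17. Cytosolic aminoacyl-tRNA synthetase genes (10) had a median of 0.02, with Eprs1 at 0.13 and Yars1 at 0.14.

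Genes of ribosome assembly and the nucleolus numbered 38 and had a median of 0.02, with 20 positive. Npm1, an abundant nucleolar chaperone, differed by -1.01 (SE 0.43), but only 3 of 6 pairs were lower, and Nop14 differed by 0.20. A list of genes with an S6 kinase name and genes of the mTOR pathway (14) had a median of -0.10, with 10 negative. Rps6ka4, listed by its name and not as a gene of the mTOR pathway, stood at -0.30. Ddit4, an inhibitor of mTOR, stood at -0.14. Markers of cell types a punch can hold had medians of 0.02 for 7 neuron markers, 0.19 for 8 astrocyte markers, 0.07 for 4 oligodendrocyte markers, 0.02 for 5 microglia markers and 0.01 for 10 hindbrain or catecholamine neuron markers. Their part in the ribosomal protein values was not tested.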

How the data were processed

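The deposited values were log2 ratios of 2-colour arrays (6 alcoholic and 6 control rats); the authors' background correction, filters and normalization are not given. The log2 base was read from the deposited values, since the largest size, 13.92, exceeds what 16-bit signals allow in other bases. Per the labels, RNA was amplified and labelled indirectly.

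Exact zeros were set missing and the array median was subtracted. Spots sharing 1 symbol in an older platform annotation were averaged. A gene, or a feature with no single symbol, needed 4 complete pairs and was fitted with limma 3.58.1 in R 4.3.3 (lmFit, eBayes; pair as a fixed block; Benjamini-Hochberg over the whole table), and pairs were compared by an F test on genes complete on all arrays. The labels state the pairs; deviations of partners correlated over all genes with r of 0.26, 0.34, 0.01, 0.43, 0.20 and 0.09. The test was checked on simulated data. Alternatives were zeros kept, no centring, quantile normalization, single features, other limits on missing pairs, no pair block, eBayes with trend, and each pair left out. Intervals are at 95%; the number of arrays limits precision.

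The set and the lists were chosen with earlier results of these data known. All members may be named; of other lists, called members or the 2 with the smallest p. The F test, profiles and component were added after the values were seen. No sequences were used here.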

Additional observations from a re-analysis of the deposited data

Results flagged for a closer look

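In 6 of 98 sets of values (each gene in each group with at least 4 measured animals, and 3 measures of the arrays), a single animal was separated from its group by more than Dixon's criterion allows; chance gives about 5. All 6 were centred log2 ratios of ribosomal protein genes. Rpl21 stood at 4.65 in the control of pair 6, with the other controls from 1.5 to 1.93. Rps7 was at 3.50 in the control of pair 4, the others lying between 1.55 and 1.95. Rps10 was at 1.71 in the alcoholic animal of pair 2, against -0.95 to -0.16. That animal also had the lowest Rpl22 of its group, 0.44 against 1.01 to 1.17, and the lowest Rpl6, 1.29 against 2.11 to 2.36. Rpl35a reached 2.09 in the alcoholic animal of pair 5, above a range of 1.47 to 1.70.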

How the results depend on the processing

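No ribosomal protein gene was called between groups, or between pairs, under any alternative run; over these the smallest adjusted p between groups by limma was 0.552, without centring. Between groups, 4 features of the whole table (Lyl1, Scrt1 and 2 with no single symbol) were called without centring and 0 under each other alternative, 0 among them without the replicate block, where 142 had an unadjusted p under 0.05 against 290 with it. The count of genes differing between pairs, 26, became 0 with exact zeros kept, 362 without centring, 12 on single features and 0 to 34 when a pair was left out (lowest without pair 1 or 4, highest without pair 6). The level of the ribosomal protein genes moved to 1.57 and 1.62 (alcoholic and control) without centring, and to 1.6 and 1.6 with quantile normalization, since those scales are not centred on 0. Their median difference lay between -0.07 and 0.02 when a pair was left out, below 0 in every case but without pair 3, and was -0.07 without centring. Of the 44 complete genes, 21 kept the sign of their difference in 14 alternatives and 23 did not, 13 of them without pair 3. For complete genes, other limits on missing pairs, no pair block and eBayes with trend leave the difference unchanged, so no sign could turn there. Rpl11 and Rps29 kept their signs in the 8 alternatives that could be run for them. Among those, the lower limit on pairs, eBayes with trend and leaving out a pair that lacked a value only repeat the main difference. Signals over background were not used here.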
